A study of Mus musculus with 15 samples.

Results

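Fgf15 and 9 further genes of fibroblast growth factor (FGF) signalling were followed by RNA-seq through the postnatal expansion of cerebellar granule neuron precursors (GNPs) and in medulloblastoma. The 10 genes, of 21889 in the gene count tables, were the ligands Fgf15, Fgf2 and Fgf9, the intracellular factor Fgf13, the receptors Fgfr1, Fgfr2 and Fgfr3, and the Sprouty genes Spry1, Spry2 and Spry4. They were listed by name, with Fgf15 as the lead because its counts fell strongly by P14, so it was chosen by its CPM over age, and those values are given as a description with no test. The 15 libraries of poly(A) RNA from mouse cerebellum fell into 5 groups of 3. GNPs were taken at E15.5 from animals of the genotype Math1-GFP, a fluorescent reporter of Math1 (Atoh1), and at P1, P7 and P14 from WT animals. Medulloblastoma cells (MB) came from Ptch1 heterozygous animals (Ptch1 encodes the Sonic hedgehog receptor), and no age is given for them. Cells of every group were enriched on Percoll, a gradient that sets cells apart by density and not by identity. E15.5 differed from the later ages in genotype as well as in age, so these cannot be told apart.

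As background, FGF ligands bind FGF receptors, which are receptor tyrosine kinases, together with heparan sulfate or a Klotho protein as a co-receptor, and signal through Ras and ERK. Sprouty proteins are inhibitors of that route which the route itself induces, and Sprouty transcripts are commonly read as a sign of FGF activity. In the cerebellum, GNPs divide in the external granule layer under Sonic hedgehog from Purkinje cells, and FGF signalling is known to oppose that mitogenic response. Fgf15 is the mouse counterpart of human FGF19, acts as a hormone from the gut in adults and is a patterning signal of the embryonic brain.

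Counts in genes ran from 12597472 to 43443132 per library, and all 10 genes passed the filter on low counts that left 15259 genes for testing. The summed level of 12 GNP markers was 3237 to 5044 CPM (counts scaled to a common library total) at E15.5, 4772 to 5486 in P1 libraries, 6975 to 8707 in those of P7, 5125 to 5788 in those of P14 and 6977 to 7861 in MB, with none of the markers at 0 in any group. Atoh1, the defining transcription factor of GNPs, stood at 129 ± 8.53 CPM (SD, n = 3) at E15.5 and at 11.9 ± 1.11 CPM at P14. At P14, 3 of the 12 GNP markers were called lower than at P1 and none higher, against 8.94% of all genes called. The gene tables fell into 2 sets by the gene Tsnax, which were taken as 2 ways of counting, an inference from this 1 gene. Tsnax held at most 0.273% of its transcript-table count in 6 gene tables (those of the P7 libraries, of MB replicate 1 and of the E15.5 replicates numbered 1 and 3) and at least 92.4% in the other 9. P7 differs from P1 and P14 in this as well as in age, so these cannot be told apart there. The P1 libraries also differ in this from E15.5 replicates 1 and 3, though not from E15.5 replicate 2. Apart from Fgf2 and Fgfr1, the genes held at least 96.3% of their transcript-table count in every library. Fgf9 held more than that count, at 114% to 137%.

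The RNA of other cell types differed strongly between groups. Summed CPM of 10 astroglial markers was 386 to 538 at E15.5 and 3107 to 4694 at P1, then 2342 to 4732 at P7 and 4092 to 5408 at P14, and 1685 to 2173 in MB. The 8 endothelial markers summed to 14.1 to 36.5 CPM at E15.5 and 415 to 626 at P1, then 311 to 377 at P7 and 773 to 802 at P14, and 20.3 to 36.0 in MB. The 10 oligodendrocyte lineage markers summed to 72.5 to 106 CPM at E15.5 and 612 to 3855 at P1, then 981 to 1911 at P7 and 5921 to 6335 at P14, and 688 to 976 in MB. All 10 astroglial, 8 endothelial and 10 oligodendrocyte lineage markers were called higher at P1 than at E15.5, and all 8 endothelial markers were called lower in MB than at P7. The 8 microglia and macrophage markers went the other way in MB, at 146 to 418 CPM against 53.4 to 140 at P7. Of these, 4 were called higher and 0 lower, against 34.5% of all genes called. The sums of neuronal lists were lower at P1 than at E15.5. Summed CPM of 8 GABAergic interneuron markers was 623 to 838 at E15.5 and 353 to 416 at P1 (6 called lower, 2 higher). The 8 Purkinje cell markers summed to 549 to 866 and 310 to 470 CPM (3 lower, 2 higher). The 10 maturing granule neuron markers summed to 7366 to 7729 and 3046 to 5469 CPM (1 lower, 2 higher).

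**Figure D1:**
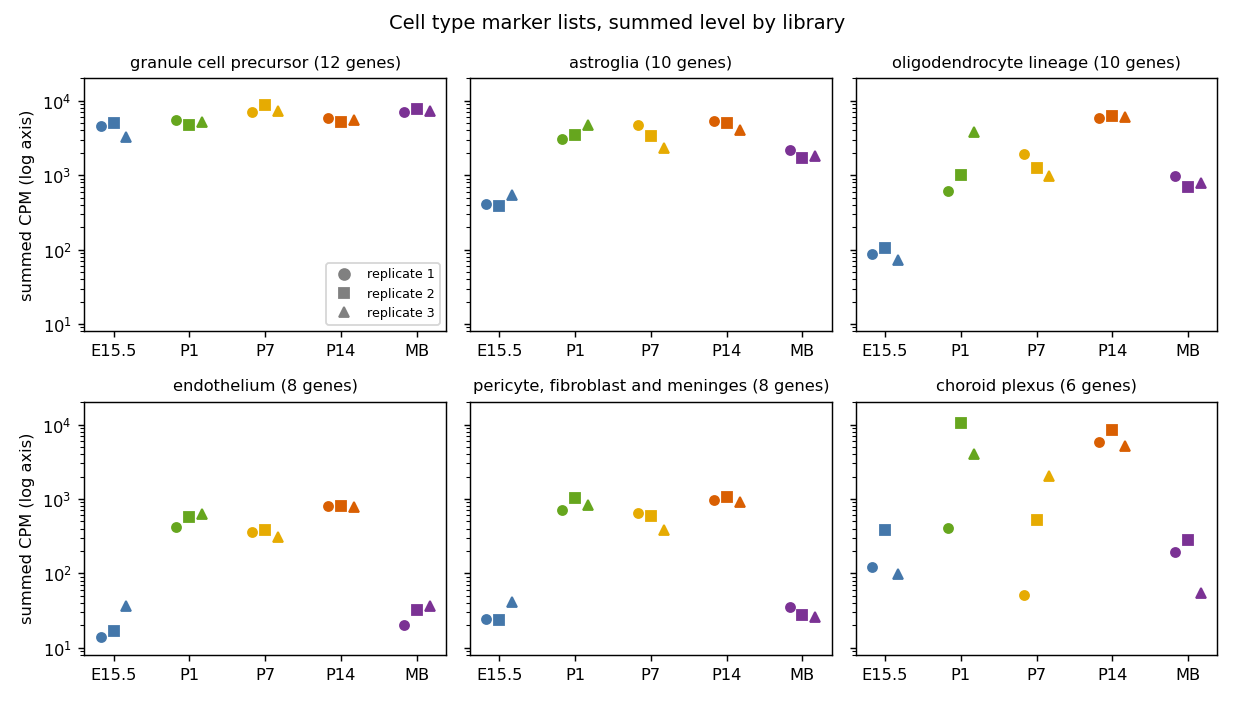
Summed CPM of marker genes per library (log axis) by group, 1 point per library and 1 panel per cell type. Astroglial, oligodendrocyte lineage and endothelial sums were lowest at E15.5 among the 4 ages, and endothelial sums in MB (20.3 to 36.0 CPM) were close to those of E15.5 (14.1 to 36.5 CPM).

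Fgf15 (ENSMUSG00000031073, chr7:152082437-152086858 on the plus strand, mm9) went from 13.6 to 75.4 CPM at E15.5 and P1 to the edge of detection at P14. It stood at 25.1, 18.0 and 75.4 CPM in the E15.5 libraries and at 30.6, 33.6 and 13.6 CPM in those of P1. These ranges overlapped, with means of 39.5 ± 31.3 and 25.9 ± 10.8 CPM (SD, n = 3), and the order of E15.5 and P1 turned when E15.5 replicate 3 was left out, from a log2 difference of P1 from E15.5 of -0.61 to 0.22. At P7 the libraries held 1.87, 1.49 and 1.23 CPM, below every library of P1. At P14 they held 1, 0 and 2 counts, and the count of 0 allows up to 0.0904 CPM. In MB the values were 0, 0.269 and 0.360 CPM, where the count of 0 allows up to 0.119 CPM. Fewer cells that express a gene and less RNA per cell cannot be told apart in these bulk libraries.

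Fgf15 was lower at each postnatal age than at the one before. Its scaled counts at P1 were 16.5 times those at P7 (95% counting interval 13.97 to 19.6), and those at P7 were 48.1 times those at P14 (16.1 to 236). From P1 to P14 the ratio was 794, with an interval of 271 to 3853 because P14 held 3 counts in all. In the order of levels, E15.5 and P1 did not separate, P7 stood below both, and MB and P14 overlapped at the bottom. The intervals of the steps overlap. They cover counting error only, not the spread between libraries. They are no test of the fall, because Fgf15 was chosen for it.

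MB was not used to choose Fgf15, but P7, an age of strong GNP division, was among the ages that were, so the test of MB against P7 is not fully independent of that choice. Fgf15 was lower in MB, by 2.81 on the log2 scale (log2 fold change -2.81, SE 0.724, edgeR FDR 0.00694), with 20 counts in MB against 150 at P7 and no overlap. Across all genes, 34.5% were called in MB against P7, and 20.7% were called lower. The call was lost with the way of counting as a term, at -2.37 and an edgeR FDR of 0.0683, and it held when any 1 of the P7 or MB libraries was left out, at -3.26 to -2.31.

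**Figure D2:**
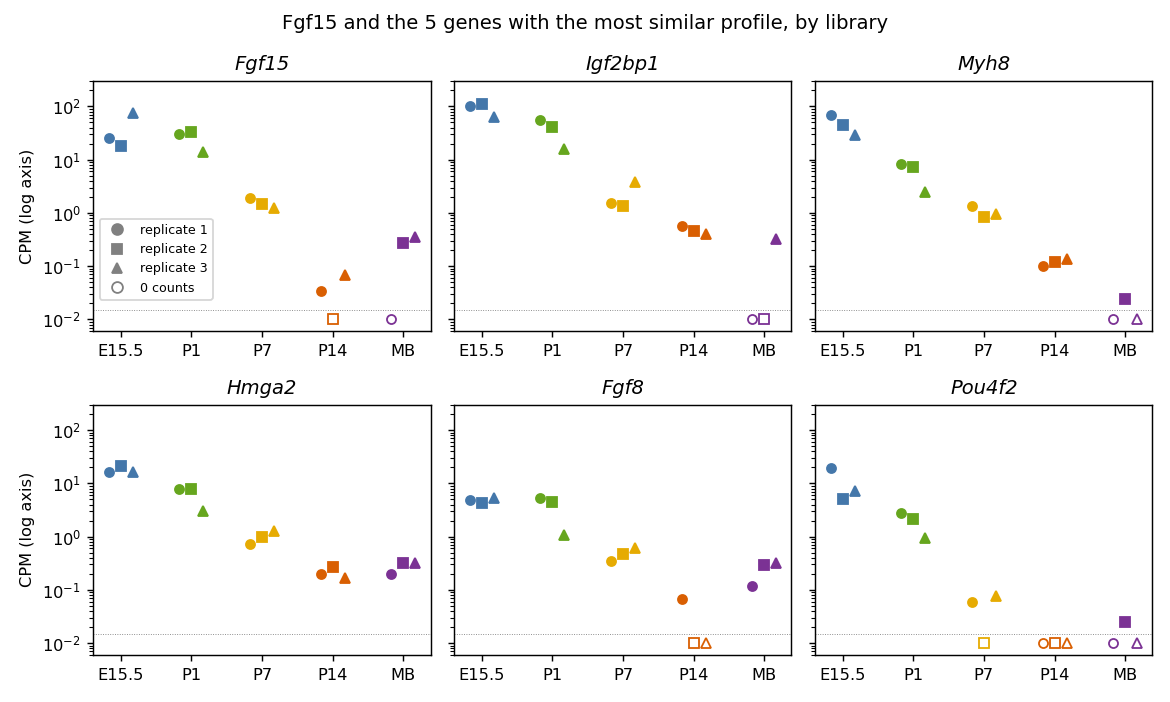
CPM (log axis) of Fgf15 and of the 5 genes with the most similar profile, in separate panels, by group with 1 point per library. Open points under the dotted line are libraries with 0 counts. The 3 Fgf15 values at P7 (1.23 to 1.87 CPM) lay below every E15.5 and P1 library and above every P14 and MB library.

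The genes with the profiles closest to Fgf15 over the 15 libraries were Igf2bp1, Myh8, Hmga2, Fgf8 and Pou4f2. Likeness was the root mean square difference of log2 CPM, each gene centred on its own mean, over 13444 genes, of which the median stood at 3.52. Igf2bp1, which encodes an mRNA-binding protein of fetal tissues, differed by 1.39, and its mean CPM was 91.0 at E15.5, 36.9 at P1 and 2.20 at P7, with 0.475 at P14 and 0.107 in MB. Hmga2, a chromatin protein of embryonic cells, differed by 1.43 and went from 17.9 CPM at E15.5 to 0.214 at P14. Myh8, a perinatal myosin, differed by 1.40, and Pou4f2, a transcription factor of sensory neurons, by 1.52. Fgf8, the ligand of the midbrain-hindbrain organizer, differed by 1.49 and had a mean CPM of 4.81 at E15.5, 3.62 at P1 and 0.479 at P7, with 0.0225 at P14 and 0.244 in MB.

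The 9 genes other than Fgf15 moved mainly between E15.5 and P1. Of the 9, 7 were called there, against 46.3% of all genes tested, with 6 higher (25.4% of all genes) and 1 lower (20.9%). With the way of counting as a term, 4 of the 9 were called there, and Fgf9, Spry2 and Spry4 were not. The median log2 fold change of the 9 was 1.41, against 0.03 over all genes. Between P1 and P7, 0 of the 9 were called by edgeR or by DESeq2, with 2 at an unadjusted p under 0.05, and 3.15% of all genes were called by edgeR. Between P1 and P14 edgeR called 0 of the 9 and DESeq2 called 1 (Spry1), with 2 at an unadjusted p under 0.05 in edgeR, against 8.94% of all genes. Asked for any difference among the 4 ages, edgeR called 7 of the 9, against 55.7% of all genes, and 4 without E15.5 replicate 3.

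**Figure D3:**
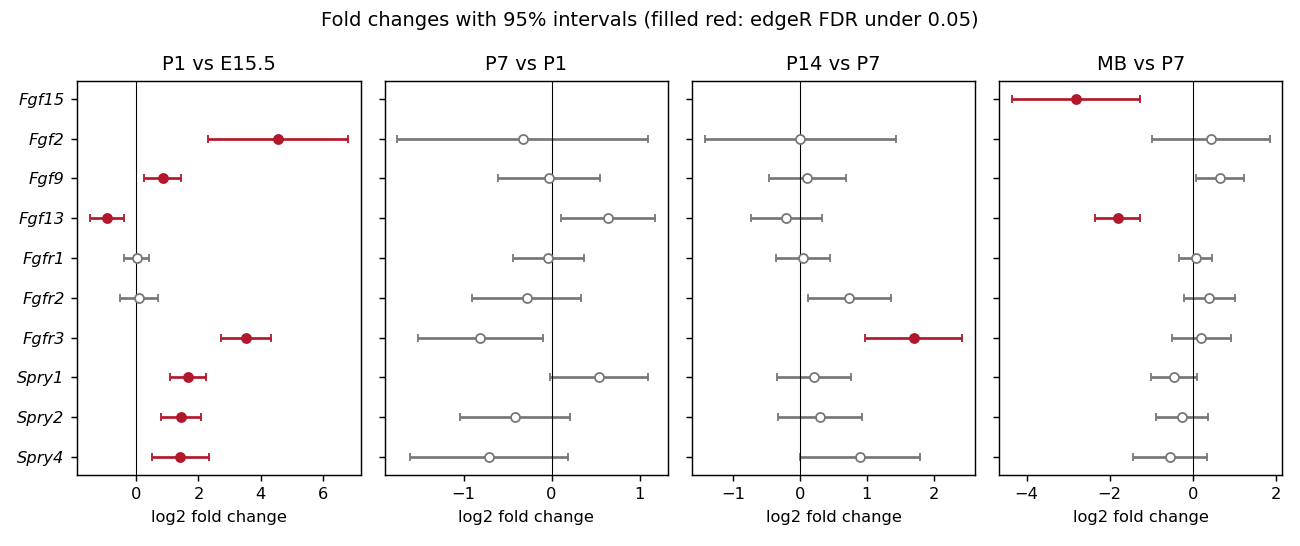
Log2 fold changes from the edgeR fit in 4 panels (the steps from E15.5 to P1, P1 to P7 and P7 to P14, and MB against P7), with 95% intervals as bars, filled red points for genes called at an FDR under 0.05, open points for the others, and Fgf15 drawn for MB against P7 alone. The Sprouty genes and Fgfr3 lay to the right of 0 for P1 against E15.5, and Fgf13 lay to the left of 0 for MB against P7.

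Among the ligands, Fgf9 (ENSMUSG00000021974, chr14:58689384-58731174, mm9), a secreted ligand made by neurons and glia, kept a steady postnatal level. It stood at 15.4, 22.2 and 9.72 CPM at E15.5, at 29.5, 24.1 and 30.9 CPM at P1, at 24.5, 30.0 and 28.2 CPM at P7, and at 29.4, 30.0 and 30.0 CPM at P14. The E15.5 libraries lay below all others, and Fgf9 rose by 0.84 on the log2 scale to P1 (SE 0.276, edgeR FDR 0.0213). That call was lost in 4 of the 6 fits that left out an E15.5 or P1 library, and without E15.5 replicate 3 the change was 0.54. It was also lost with the groups compared alone (0.85) and with the way of counting as a term (0.41, edgeR FDR 0.231). Against E15.5 replicate 2 alone, the E15.5 library counted like P1, the change was 0.34. The MB libraries held 31.9, 38.6 and 60.3 CPM, all above those of P7, a difference of 0.66 that edgeR did not call (FDR 0.0739) and DESeq2 called.

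Fgf2 (ENSMUSG00000037225, chr3:37247268-37304299, mm9), a ligand stored on heparan sulfate, was near the limit of detection throughout. Its libraries held 0, 0.167 and 0 CPM at E15.5 and 0.472, 0.853 and 1.06 CPM at P1. The postnatal ages stayed within 0.462 to 1.06 CPM, and MB held 1.90, 0.293 and 0.440 CPM. The P1 libraries were called higher than E15.5 (log2 fold change 4.55, edgeR FDR 0.00271), on 61 counts against 2 and a ratio of 29.4 (95% counting interval 7.81 to 248). Fgf2 is uncertain, because its locus overlaps its antisense neighbour Nudt6, the gene table held at most 38.9% of its transcript-table count, and the change in the transcript table was -0.10.

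Fgf13 (ENSMUSG00000031137, chrX:56315322-56821248 on the minus strand, mm9) belongs to the FGF homologous factors, which stay inside neurons and bind sodium channels rather than FGF receptors. It was the member that fell around birth, from 56.5, 76.4 and 71.5 CPM at E15.5 to 35.6, 24.5 and 46.0 CPM at P1, with no overlap (log2 fold change -0.95, SE 0.253, edgeR FDR 0.00686). At P7 it stood at 50.9, 75.4 and 39.0 CPM and at P14 at 52.8, 46.0 and 45.2 CPM, neither called against P1. In MB it was lower than in every GNP library, at 17.3, 13.7 and 16.3 CPM. The change from P7 to MB was 3.50-fold (log2 fold change -1.81, SE 0.259, edgeR FDR 7.02e-05), and Fgf13 was the 1 gene of the 9 called between them. Summed levels of 10 maturing granule neuron markers were 1984 to 3394 CPM in MB against 4817 to 5816 at P7. They were 7366 to 7729 CPM at E15.5 and 3046 to 5469 CPM at P1. Gene by gene these 10 markers did not fall as a set there. At P1, 2 were called higher and 1 lower, with a median log2 fold change of 0.22. The part of these markers in either fall of Fgf13 was not tested.

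The 3 receptors behaved differently from one another. Fgfr1 (ENSMUSG00000031565, chr8:26629264-26686186, mm9), the FGF receptor of many neural progenitors, had group means of 96.2 ± 7.75 CPM for E15.5, 96.8 ± 2.70 for P1, 94.4 ± 13.7 for P7, 97.8 ± 10.3 for P14 and 99.1 ± 28.7 for MB (SD, n = 3). The difference between P1 and E15.5 was 0.01 on the log2 scale with a 95% interval of -0.40 to 0.42, and that between MB and P7 was 0.07 with an interval of -0.33 to 0.48. The MB libraries were the most spread, at 71.2, 128 and 97.7 CPM.

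Fgfr2 (ENSMUSG00000030849, chr7:137306026-137409759 on the minus strand, mm9), a receptor common in glia, ranged from 24.2 to 53.5 CPM at P1, from 30.1 to 46.3 CPM at P7 and from 49.8 to 65.4 CPM at P14. The P14 libraries lay above those of P7, a difference of 0.74 with a 95% interval of 0.12 to 1.36 that edgeR did not call (FDR 0.112). It was called when P7 and P14 were compared alone (edgeR FDR 0.0271). At E15.5 Fgfr2 stood at 46.2, 43.3 and 32.7 CPM and in MB at 51.7, 56.4 and 33.3 CPM, ranges that overlapped with P1 and with P7.

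Fgfr3 (ENSMUSG00000054252, chr5:34064373-34079716, mm9), in the brain best known from astroglia and their precursors, had the largest rise of the 9 genes from E15.5 to P1 apart from the sparse Fgf2. It stood at 2.40, 1.503 and 3.15 CPM at E15.5 and at 17.1, 28.9 and 37.2 CPM at P1. The groups did not overlap, with an 11.4-fold rise (log2 fold change 3.52, SE 0.377, edgeR FDR 5.17e-06). The P7 libraries held 24.9, 10.7 and 11.9 CPM, overlapping with P1, and the P14 libraries 52.8, 57.1 and 44.7 CPM, above all others. From P7 to P14 Fgfr3 rose by 1.70 on the log2 scale (SE 0.340, edgeR FDR 0.0105), the 1 gene of the 9 called in that comparison, against 10.3% of all genes, or 5.81% counting those called higher. That call was lost without P7 replicate 2 (1.48) or P14 replicate 2 (1.62) and with the way of counting as a term (2.03). Over the same groups the summed astroglial markers ran from 386 to 538 CPM at E15.5 up to 4092 to 5408 CPM at P14, and their part in the Fgfr3 values was not tested.

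Per kilobase of exon, which allows genes to be compared, the receptors stood at 19.3 ± 1.55 CPM per kb for Fgfr1, 9.65 ± 1.68 for Fgfr2 and 0.557 ± 0.195 for Fgfr3 at E15.5 (SD, n = 3). At P14 the levels were 19.6 ± 2.06 for Fgfr1, 14.1 ± 1.99 for Fgfr2 and 12.2 ± 1.49 CPM per kb for Fgfr3. The order of the receptors was thus the same at both ages, with Fgfr3 far below the others at E15.5 and next to Fgfr2 at P14.

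The Sprouty genes rose together from E15.5 to P1, by 1.41 to 1.65 on the log2 scale, although with the way of counting as a term Spry1 alone was called, at 1.19. Spry1 (ENSMUSG00000037211, chr3:37538869-37543520, mm9) stood at 6.93, 7.02 and 6.54 CPM at E15.5 and at 18.7, 21.2 and 24.4 CPM at P1. It rose by 1.65 on the log2 scale (SE 0.271, edgeR FDR 2.00e-04) and stayed up, at 35.2, 30.8 and 27.5 CPM at P7 and 32.9, 39.4 and 36.1 CPM at P14. Every P7 and P14 library lay above every P1 library, but neither difference was called (0.54 with an edgeR FDR of 0.262 for P7, 0.75 with an edgeR FDR of 0.0793 for P14).

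Spry2 (ENSMUSG00000022114, chr14:106291166-106296036 on the minus strand, mm9) encodes another inhibitor of the Ras and ERK route. It held 32.7, 24.2 and 27.8 CPM at E15.5 and 79.0, 76.1 and 73.5 CPM at P1, a rise of 1.43 (SE 0.301, edgeR FDR 0.00137) that was 1.00 and not called with that term (edgeR FDR 0.0547). Its later libraries stood between 43.1 and 69.0 CPM at P7 and between 63.3 and 80.0 CPM at P14, and neither age was called against P1. Spry4 (ENSMUSG00000024427) held 10.6, 11.7 and 6.64 CPM at E15.5 and 25.8, 22.4 and 28.2 CPM at P1, a rise of 1.41 (SE 0.430, edgeR FDR 0.0147). The Spry4 call was lost without E15.5 replicate 3 (1.14) and with the way of counting as a term (0.44). At P7 Spry4 held 15.1, 12.1 and 19.6 CPM, below every P1 library, and at P14 30.7, 29.2 and 27.7 CPM, and neither age was called against P1. Per kilobase of exon, Spry2 stood at 33.7 ± 4.16 CPM per kb at P14, Spry1 at 14.5 ± 1.29 and Spry4 at 6.36 ± 0.331 (SD, n = 3). The astroglial and endothelial sums rose between the same groups as the Sprouty genes, and their part in the rise was not tested.

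**Figure D4:**
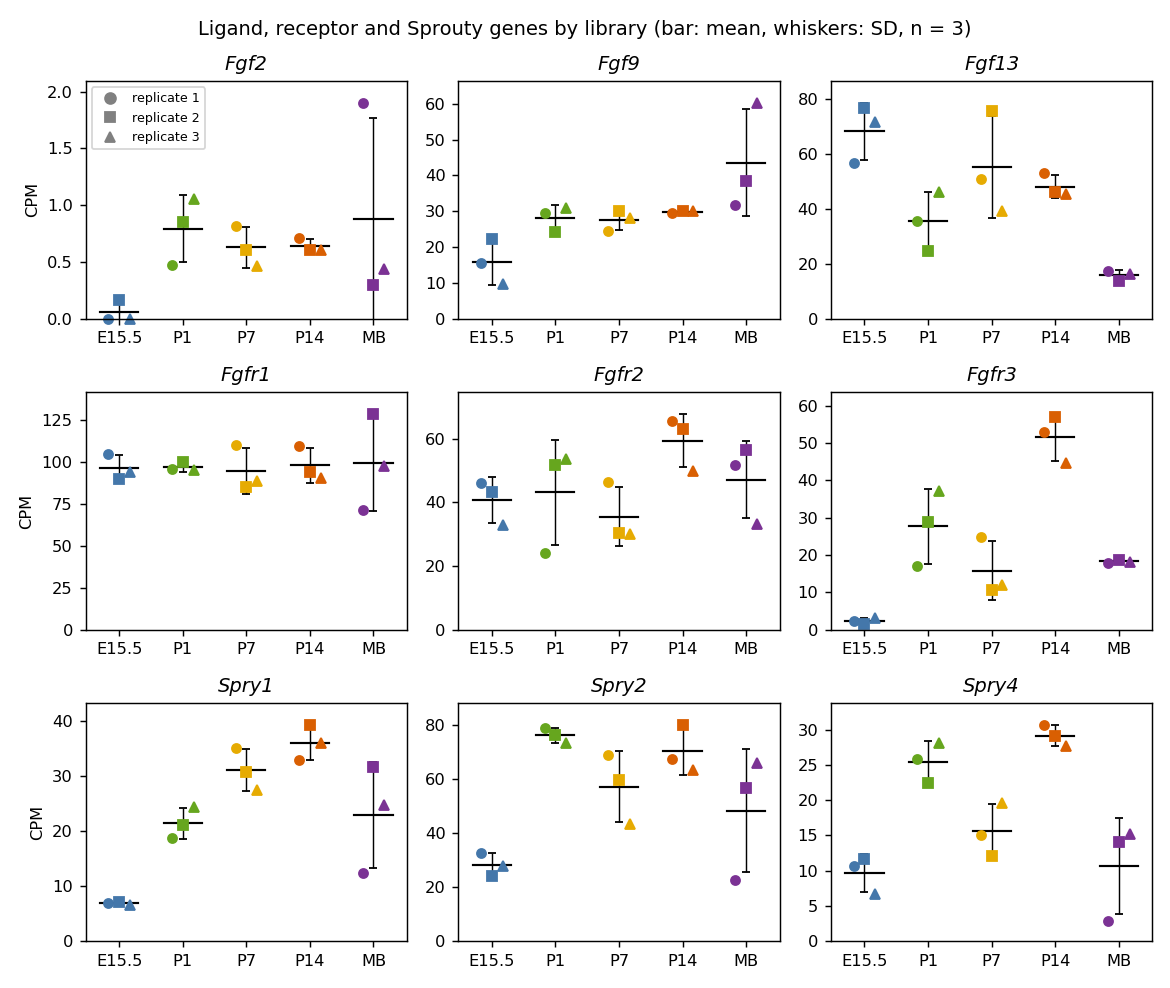
CPM of the 9 genes other than Fgf15 in each library by group, 1 point per library with the mean and SD (n = 3) and a separate linear axis from 0 for each gene. Fgfr1 kept a mean of 94.4 to 99.1 CPM in all 5 groups, while Fgfr3, Spry1, Spry2 and Spry4 were lowest at E15.5 among the 4 ages.

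The 250 bases before the annotated start are shown for the genes of this rise with the lowest FDR in P1 against E15.5 and a RefSeq entry, so that the promoters of genes that rose together can be read side by side. Of the 10 genes, 7 were matched to a RefSeq promoter, without Fgf15, Fgfr1 and Spry4, and Fgfr3 has 2 annotated starts, of which the first is shown. The windows are on GRCm38.p6, at chr5:33721474-33721723 (plus strand) for Fgfr3, chr3:37639697-37639946 (plus strand) for Spry1 and chr14:105896820-105897069 (minus strand) for Spry2. Capitals mark the GC box, GGGCGG or its reverse complement CCGCCC, and each sequence is written 5′ to 3′ on the gene's strand.
Fgfr3: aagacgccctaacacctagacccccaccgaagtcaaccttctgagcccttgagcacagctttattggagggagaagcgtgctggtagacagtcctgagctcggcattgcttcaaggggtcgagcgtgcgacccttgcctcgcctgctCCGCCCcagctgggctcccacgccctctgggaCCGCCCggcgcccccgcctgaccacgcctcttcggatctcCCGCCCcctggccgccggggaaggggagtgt
Spry1: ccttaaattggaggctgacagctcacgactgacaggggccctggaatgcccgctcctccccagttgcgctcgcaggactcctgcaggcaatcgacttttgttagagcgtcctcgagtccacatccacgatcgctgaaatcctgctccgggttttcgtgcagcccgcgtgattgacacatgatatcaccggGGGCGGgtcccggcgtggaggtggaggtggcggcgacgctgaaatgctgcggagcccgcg
Spry2: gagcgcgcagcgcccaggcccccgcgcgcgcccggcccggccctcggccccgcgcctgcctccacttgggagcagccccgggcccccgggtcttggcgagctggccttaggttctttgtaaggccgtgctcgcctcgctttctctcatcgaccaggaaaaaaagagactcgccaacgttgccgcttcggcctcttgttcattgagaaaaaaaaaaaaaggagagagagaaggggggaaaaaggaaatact
Fgfr3 held 3 GC boxes, which began 103, 71 and 31 bases before the start, Spry1 held 1 at 60 bases and Spry2 held none. Of all 32851 RefSeq windows of this length, 32.7% held a GC box on either strand. The core of ETS factors, which relay ERK activity (CCGGAA or TTCCGG, in 12.03% of windows), and the core of GLI factors, which relay hedgehog signals (ACCACCC or GGGTGGT, in 3.92%), were in none of these 3 windows. A match or its absence says only whether these letters are in the window.

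In MB none of the receptors and Sprouty genes was called against P7. The Sprouty calls changed in fits that allowed for the way of counting. For the Sprouty genes, the gene table held 98.3% to 100% of the transcript-table count in both ways. MB replicate 1 held the lowest value of the 3 MB libraries for each Sprouty gene. Spry1 stood at 12.5, 31.6 and 24.7 CPM, Spry2 at 22.5, 56.5 and 65.8 CPM, and Spry4 at 2.86, 14.02 and 15.3 CPM. Each of these ranges overlapped with P7. MB replicate 1 was also the 1 MB library counted in the same way as P7. With P7 set against that library alone, taken to vary like the other groups, Spry1 changed by -1.32, Spry2 by -1.35 and Spry4 by -2.45. Fgf2 was higher by 1.58 in that fit, and Fgf13 was again lower. These changes rest on 1 MB library, so that library and the way of counting cannot be told apart. With the way of counting as a term, Spry1 (-0.95, edgeR FDR 0.0262) and Spry4 (-1.71, edgeR FDR 0.0105) were called lower and Spry2 was not. Fgfr3 was even in MB, at 18.0, 18.7 and 18.3 CPM, within the range of P7.

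Against P14, 4 of the 9 genes were called in MB, all lower, where 50.0% of all genes were called and 27.2% were lower. Fgf13 was lower by a log2 fold change of -1.61 (edgeR FDR 1.14e-04), Fgfr3 by -1.49 (edgeR FDR 0.00189) and Spry4 by -1.44 (edgeR FDR 0.0108). Spry1 was lower by -0.66 (edgeR FDR 0.0473), a call lost in 9 of the alternative fits, and without MB replicate 1 its change was -0.36. When MB and P14 were compared alone, 2 of the 9 were called, and Spry4 was not (edgeR FDR 0.0572). Fgf9 went the other way, with every MB library above every P14 library. Its difference of 0.55 was not called (edgeR FDR 0.108). It was called without MB replicate 1 (0.73, edgeR FDR 0.0369) and with the way of counting as a term (0.76, edgeR FDR 0.0116). Endothelial markers summed to 20.3 to 36.0 CPM in MB and 773 to 802 CPM at P14, and astroglial markers to 1685 to 2173 against 4092 to 5408 CPM, and their part in these differences was not tested.

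The surrounding pathway was read from 81 further genes in 7 lists by role, of which 74 were tested. From E15.5 to P1, 22 were called higher and 12 lower, near the share of all genes, with a median log2 fold change of 0.12 against 0.03. Of the 12 other receptors and co-receptors, 7 were higher and 0 lower, and this count and those of the other roles stand beside 25.4% of all genes higher and 20.9% lower. Kl, the co-receptor of the hormone Fgf23, had 0.220 ± 0.197 CPM at E15.5 and 24.6 ± 23.8 at P1 (SD, n = 3), a rise of 6.51 on the log2 scale (edgeR FDR 6.64e-04), and ranged from 0.815 to 48.4 CPM within P1. Choroid plexus markers, a tissue known for Kl, ranged from 408 to 10521 CPM in the same P1 libraries, and their part in the Kl values was not tested. Sdc4, a heparan sulfate proteoglycan of the cell surface, rose by 4.05 (SE 0.463, edgeR FDR 9.00e-06).

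Of the 10 other ligands tested, 2 were higher and 3 lower at P1. Fgf1, a ligand of all FGF receptors, went from 0.470 ± 0.245 to 11.2 ± 9.08 CPM, a rise of 4.65 (edgeR FDR 5.21e-05). Fgf3, a ligand of the embryonic hindbrain, went from 95.5 ± 78.3 to 4.69 ± 1.90 CPM, a fall with a log2 fold change of -4.35 (edgeR FDR 1.48e-05). The means of Fgf15 at these ages were 39.5 and 25.9 CPM.

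Of the 10 transcriptional targets tested, 5 were higher and 1 lower. The immediate early genes Fos and Egr1 rose by 5.02 (edgeR FDR 1.96e-04) and 3.73 (edgeR FDR 0.00548). Of the 8 other feedback inhibitors, 3 were higher and 1 lower, with Lrig1, an inhibitor of receptor tyrosine kinases, higher by 2.67 (SE 0.216, edgeR FDR 4.80e-07) and Spred3, a relative of the Sprouty genes, lower by a log2 fold change of -1.11 (edgeR FDR 0.00185). Among 22 intracellular signalling genes, 2 were higher and 5 lower. Mapk3, the kinase ERK1, had 226 ± 63.1 CPM at E15.5 and 45.2 ± 6.47 at P1, a log2 fold change of -2.32 (SE 0.220, edgeR FDR 1.76e-06), Hras fell with -1.34 and the adaptor gene Frs3 with -1.17. Hras was not called inside 1 way of counting (-0.77), nor Frs3 in the start-site table (-0.45). Of the 9 heparan sulfate enzymes 3 were higher and 1 lower, the sulfotransferase Hs6st1 with -1.26, and of the 3 other FGF homologous factors 1 was lower.

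After P1 fewer genes were called in the pathway lists, as over all genes. Between P1 and P7, 1 of the 74 was called higher and 3 lower, against 3.15% of all genes, with 0 in both directions without P1 replicate 2 or P7 replicate 2. Between P7 and P14, 8 were higher and 3 lower, against 10.3% of all genes, and leaving out 1 library gave 0 to 8 higher and 0 to 1 lower, with 0 in both directions without P7 replicate 2. Between P1 and P14, 4 were higher and 3 lower, against 8.94% of all genes. Fgf8 went from 268 counts to 2, a ratio of 164 (95% counting interval 45.0 to 1364). Ccnd1, the cyclin that drives G1 in GNPs, fell with a log2 fold change of -1.70 (edgeR FDR 0.0120), and Flrt2, an adhesion protein that binds FGF receptors, with -0.91 (edgeR FDR 0.0176). Rps6ka1, an ERK-activated kinase, rose by 1.58 (edgeR FDR 0.0343), the ERK phosphatase gene Dusp5 by 1.29 (edgeR FDR 0.0257), the sulfatase gene Sulf2 by 0.91 (edgeR FDR 0.0497) and the decoy receptor gene Fgfrl1 by 0.80 (edgeR FDR 0.0194). These calls other than Fgf8 were lost without P1 replicate 1 and without P14 replicate 2. The count of higher genes was 11 without P1 replicate 3 and 0 without any 1 of the other 5 libraries.

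**Figure D5:**
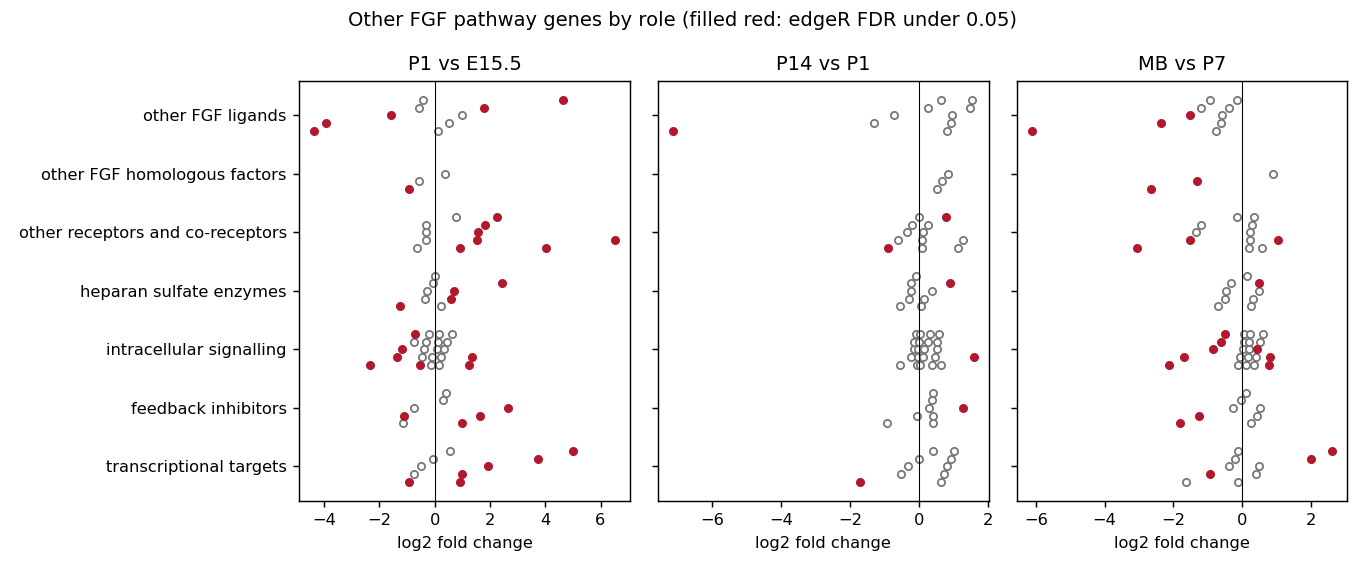
Log2 fold changes of the tested genes of the 7 FGF pathway lists by role, 1 point per gene, for P1 against E15.5, P14 against P1 and MB against P7, with filled red points for genes called by edgeR at an FDR under 0.05. Of the 74 genes, 34 were called in the first comparison, 7 in the second and 22 in the third.

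In MB against P7, 7 of the 74 were called higher (4 without P7 replicate 3) and 15 lower, against 34.5% of all genes called and 20.7% lower. Among the higher genes were Myc, from 22.3 ± 3.44 to 138 ± 86.2 CPM (log2 fold change 2.63, edgeR FDR 1.14e-04), Ccnd1 (1.99), Flrt2 (1.03), the kinase gene Braf (0.81) and the heparan sulfate enzyme gene Hs2st1 (0.50). Braf and Hs2st1 had edgeR FDRs of 0.0495 and 0.0402. Both calls were lost without any 1 of the P7 libraries and without MB replicate 1, where the changes were 0.38 and 0.29. With P7 set against MB replicate 1 alone, Ccnd1 was not called (0.92), Myc was at 0.89, and Rps6ka1, among the lower genes, was not called (-1.53). Among the lower genes, Fgf3 held 3 counts in MB against 247 at P7, a ratio of 77.8 (95% counting interval 26.3 to 380). The glypican gene Gpc4 had 36.9 ± 15.7 CPM at P7 and 4.42 ± 1.57 in MB (log2 fold change -3.07, edgeR FDR 1.92e-06). Fgf11, like Fgf13 an intracellular factor of neurons, had 36.2 ± 4.35 CPM at P7 and 5.76 ± 1.82 in MB (log2 fold change -2.65, edgeR FDR 8.03e-06), and 2 of the 3 other FGF homologous factors were lower. The ligand gene Fgf7 (-2.36), Rps6ka1 (-2.14) and Il17rd, a membrane inhibitor of FGF signalling (-1.82), were lower too. Against P14, 11 were higher and 27 lower in MB, where 50.0% of all genes were called and 27.2% lower.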

How the data were processed

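Each library has 3 tables of raw read counts that the authors deposited, per gene, per transcript and per start-site model; the values are whole and not normalized. The submitters' processing notes name Trimmomatic, TopHat, StringTie, HTSeq and the build mm9, with no versions, and the strand setting is not given in the sources used here. Positions, counted from 1, come from the transcript table. Lines of the gene table that name no gene held 44.6% to 60.5% of records and were left out.

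Gene-table counts entered 1 quasi-likelihood model of edgeR 4.0.16 (R 4.3.3) over the 15 libraries, with a mean for each group and 10 residual degrees of freedom. The filter was filterByExpr with a minimum count of 10 and a minimum total of 15, and TMM gave the scaling. P-values were adjusted by Benjamini-Hochberg over 15259 genes (FDR), and a gene was called under 0.05. CPM uses the TMM-scaled total, CPM per kb the summed length of the gene's exons, and the SE is the log2 fold change divided by the root of F. Ratios of low counts carry exact 95% intervals, and a count of 0 allows up to 3 counts. The fit was checked on simulated counts with known changes. These were set in well-counted genes with 1 spread for all genes, so sparse genes such as Fgf2 were not covered.

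Replicates are separate libraries by label; nothing says that they came from separate animals, so p-values measure the spread between these libraries, which may be technical. Replicate numbers did not pair the samples. The members, lists, tests and alternatives were chosen with earlier results of these data known. All members were named. From the pathway lists, up to 6 called genes per direction with the largest changes and a mean of at least 1 CPM were named in 3 comparisons, and the 5 genes nearest to Fgf15 in profile; 1 gene that this rule selects is not reported here. Alternatives were DESeq2 1.42.0, other scalings, no filter, groups compared alone, a replicate block, the other tables, the way of counting, and each library left out.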

Additional observations from a re-analysis of the deposited data

How the results depend on the processing

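The fits were repeated over 10 alternative settings and with each of the 15 libraries left out in turn. When 1 library was left out, the number of the 9 genes called was 5 to 7 for P1 against E15.5, 0 to 0 for P7 against P1 and 0 to 1 for P14 against P7. It was 0 to 1 for P14 against P1, 1 to 2 for MB against P7, 3 to 4 for MB against P14 and 4 to 7 for the 4 ages. The change of Fgf15 from P7 to MB ran from -3.26 to -2.31 when 1 library was left out. Over the 10 settings it ran from -8.46 to -2.37, and the -8.46, inside 1 way of counting, is a fit to MB replicate 1 alone, with 0 counts, and is no bound. With the groups compared alone, 3 were called for P14 against P7, 2 in the P14-P1 comparison and 2 in the MB-P14 comparison. DESeq2 called 1 in the P14-P1 comparison and 2 in the MB-P7 comparison. With the way of counting as a term, 4 were called for P1 against E15.5, 0 for P14 against P7, 1 in the P14-P1 comparison and 3 in the MB-P7 comparison, and Fgf15 was at -2.37 in MB. Inside 1 way of counting, 1 was called in the P14-P1 comparison. The MB-P7 count of that setting is left out, because it rests on 1 MB library. In the start-site table, where 5 of the 9 genes could be matched, 4 were called for P1 against E15.5 and 4 for the 4 ages. The cause of these differences was not tested, other than the fewer genes matched in the start-site table.

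Fgf15 in P1 against E15.5 (-0.61) ran from -0.96 to 0.22 when 1 library was left out, turning without E15.5 replicate 3, and it turned to 0.52 inside 1 way of counting, and Fgf2 turned to -0.10 in the transcript table. The replicate numbers did not pair the samples: 18 correlations of same-numbered deviations ran from -0.24 to 0.33, with 6 over 0.1. With the replicate block, 7 of the 9 genes were called for P1 against E15.5 and 5 for the 4 ages, and Fgf15 was at -2.86 in MB against P7. Counts over all genes moved too, from 480 to between 9 and 888 for P7 against P1, from 1574 to between 125 and 1077 for P14 against P7 and from 1364 to between 154 and 2714 for P14 against P1 when 1 library was left out. Over the alternative settings these counts were 197 to 1209 for P7 against P1 and 295 to 3838 for P14 against P7. They were 955 to 4089 for P14 against P1 and 5367 to 7956 for MB against P14. Low counts limit Fgf2 in every group and Fgf15 at P14 and in MB. For Fgf2 the gene table also held at most 38.9% of its transcript-table count.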
